A study of Mus musculus with 24 samples.

Results

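The perineuronal net and tenascin genes are 9 genes of the extracellular matrix of the brain, followed here through the hippocampus of mice with and without Egr1. The members, Hapln1, Hapln4, Acan, Bcan, Ncan, Vcan, Tnr, Tnc and Ptprz1, were taken by symbol from a table of 36605 genes, and all 9 were found and passed the filter on low counts. The study removed Egr1, an activity-induced transcription factor, from the neural lineage by crossing mice with a floxed Egr1 allele (strain Egr1_tm1a_A04, C57BL/6 N-Egr1/Tcp) with mice that carry Cre under the Nestin promoter (B6.Cg-Tg (Nes-Cre)1Kln/J). RNA was sequenced from 24 adult mice, 6 of each genotype, with 3 females and 3 males in each. Complete wild types (wtNeg) carried neither alteration, Cre controls (wtPos) carried the transgene and an unaltered Egr1, floxed controls (ffNeg) carried the floxed allele without Cre, and the conditional knockouts (Egr1cKO, ffPos) carried both. Nestin-Cre acts in neural precursors, from which neurons, astrocytes and oligodendrocytes descend. The labels name no treatment. The wt mice and the ff mice bear separate ranges of mouse numbers, and a flox difference and a difference between the ranges cannot be told apart, whereas the Cre difference lies within each range.

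Perineuronal nets are lattices of matrix that wrap the cell body and proximal dendrites of certain neurons, above all the parvalbumin interneurons and, in the hippocampus, the CA2 pyramidal cells. Their backbone is hyaluronan. Lecticans (aggrecan, brevican, neurocan and versican, from Acan, Bcan, Ncan and Vcan) bind to it, link proteins (Hapln1 and Hapln4) lock that bond, and tenascin-R (Tnr) ties the lecticans together at their other end. Tenascin-C (Tnc) is a relative of tenascin-R made by astrocytes, radial glia and progenitor cells. Ptprz1 encodes a receptor phosphatase of glia that carries chondroitin sulphate, and its secreted form, phosphacan, binds both tenascins.

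Levels were compared between genes only after division by exonic length, as CPM (counts scaled to library size) per kb of exon. On that scale Bcan stood highest, with a mean of 78.9 CPM per kb over the 24 mice. Ncan (35.03) and Hapln4 (29.9) came next, and their ranges of 27.8 to 41.9 and 23.5 to 36.05 overlapped. Tnr (19.9) and Ptprz1 (19.8) could not be separated. Hapln1 had a mean of 5.70 CPM per kb, and Vcan (1.93), Tnc (1.08) and Acan (0.897) were the lowest. The glial lectican brevican thus exceeded aggrecan, the lectican that marks mature nets, in every mouse. From mouse to mouse Tnc varied most, with a coefficient of variation of 34.3%, and Bcan varied least, at 7.80%. All values below are CPM, which are not divided by length.

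**Figure D1:**
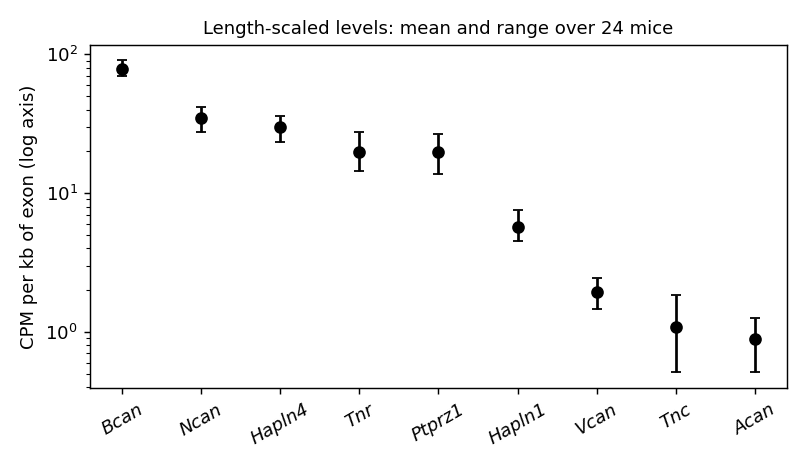
Level of each member in CPM per kb of exon on a log axis; the point is the mean over 24 mice and the bar runs from the lowest to the highest mouse. Bcan lies highest, at a mean of 78.9, and Acan lowest, at 0.897.

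The libraries held 18025168 to 34955004 counts. Egr1, the targeted gene, followed the labels: its level was 4.86 to 10.2 CPM in the 6 ffPos mice (median 8.18) and 47.7 to 149 CPM in the 18 others. Its difference between ffPos and ffNeg was −3.57 on the log2 scale (SE 0.189, edgeR adjusted p = 2.99e-08). The labels name the cell type as endocrine, but the pituitary markers Gh, Prl, Pomc, Tshb and Cga summed to at most 3.84 CPM in any mouse, with Prl at 0 in 15 mice, while the hippocampal neuron markers summed to at least 699.6 CPM. Markers of choroid plexus exceeded 300 CPM in 5 mice (female wtPos replicate 1, male wtPos replicate 3, male ffNeg replicates 2 and 3, male ffPos replicate 2), and markers of striatum exceeded 90 CPM in 2 (male ffNeg replicate 3 and male ffPos replicate 3). For member differences with an unadjusted p under 0.05, calls lost and values moved by over 1.5 times without the choroid-rich mice are given both ways. The sizes of other member differences, and markers such as Aqp4 and Hopx, were not followed in those fits.

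The first question was which factor each member follows: the floxed allele, Nestin-Cre, or the 2 together. With all 24 mice in 1 edgeR fit, Hapln1 and Tnc rose with Nestin-Cre, and no member passed the test for the floxed allele, for the interaction or for sex. A gene was called where its p, adjusted over all genes tested, was 0.05 or less. The 2 members called with Cre compare with 9 of 19742 genes called in all (0.0456%), of which 7 were higher (0.0355%). DESeq2 called the same 2 members with Cre, among 19 genes (0.0962%), Ptprz1 in the interaction, among 242 genes (1.23%), and no member for the floxed allele or for sex. In the interaction it gave no adjusted p for Hapln1, Acan and Tnc, so it could not call them there. Its shares are of all genes fitted, including any without an adjusted p. At an unadjusted p under 0.05 the floxP term held 1 member, Acan, beside 5.5% of all genes, and the Cre term held 3, Hapln1, Ncan and Tnc, beside 4.29%. For the floxP term and for the interaction the single gene called in each (0.00507%) was Egr1, and for sex 13 genes (0.0658%) were called. The Cre term averages the Cre difference over floxed and unfloxed mice, so a gene that differs in ffPos alone also contributes to it, as Egr1 did with −1.95.

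**Figure D2:**
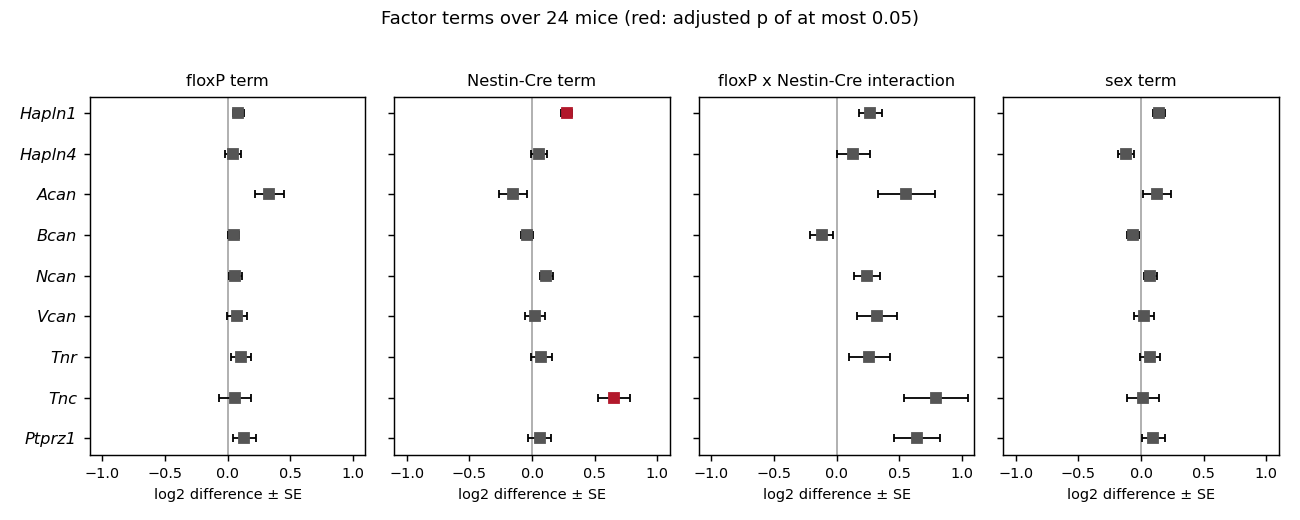
Log2 difference of each member (square) with its standard error (bar) for floxed against unfloxed, Cre-positive against Cre-negative, the interaction (the Cre difference in floxed mice minus that in unfloxed mice) and female against male, from 1 edgeR fit of 24 mice. The called differences, in red, are Hapln1 (0.28) and Tnc (0.66) in the Nestin-Cre panel. Right of 0 lie 9 of 9 members in the floxP panel and 8 of 9 in the interaction panel.

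Without a threshold, most members had a positive estimate of the interaction, 8 of 9, with a median of 0.27, against a median of −0.03 over all genes tested. This was not particular to the interaction or to the members. Estimates were positive in 9 of 9 members for floxP and in 7 of 9 for Cre and for sex. Of the 60 related genes tested, 43 had a positive interaction. The share of positive estimates over all genes was not counted, and members whose levels are correlated do not give separate signs. Unadjusted p fell under 0.05 in 5 members (Hapln1, Acan, Ncan, Tnc and Ptprz1, all positive), while 18.4% of all genes did so. After adjustment the smallest p among the members was 0.159 by edgeR's quasi-likelihood test. These 5 had their highest mean in the ffPos mice, but so did Hapln4, Vcan and Tnr. A high ffPos mean itself raises the interaction, so it is not separate support.

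**Figure D3:**
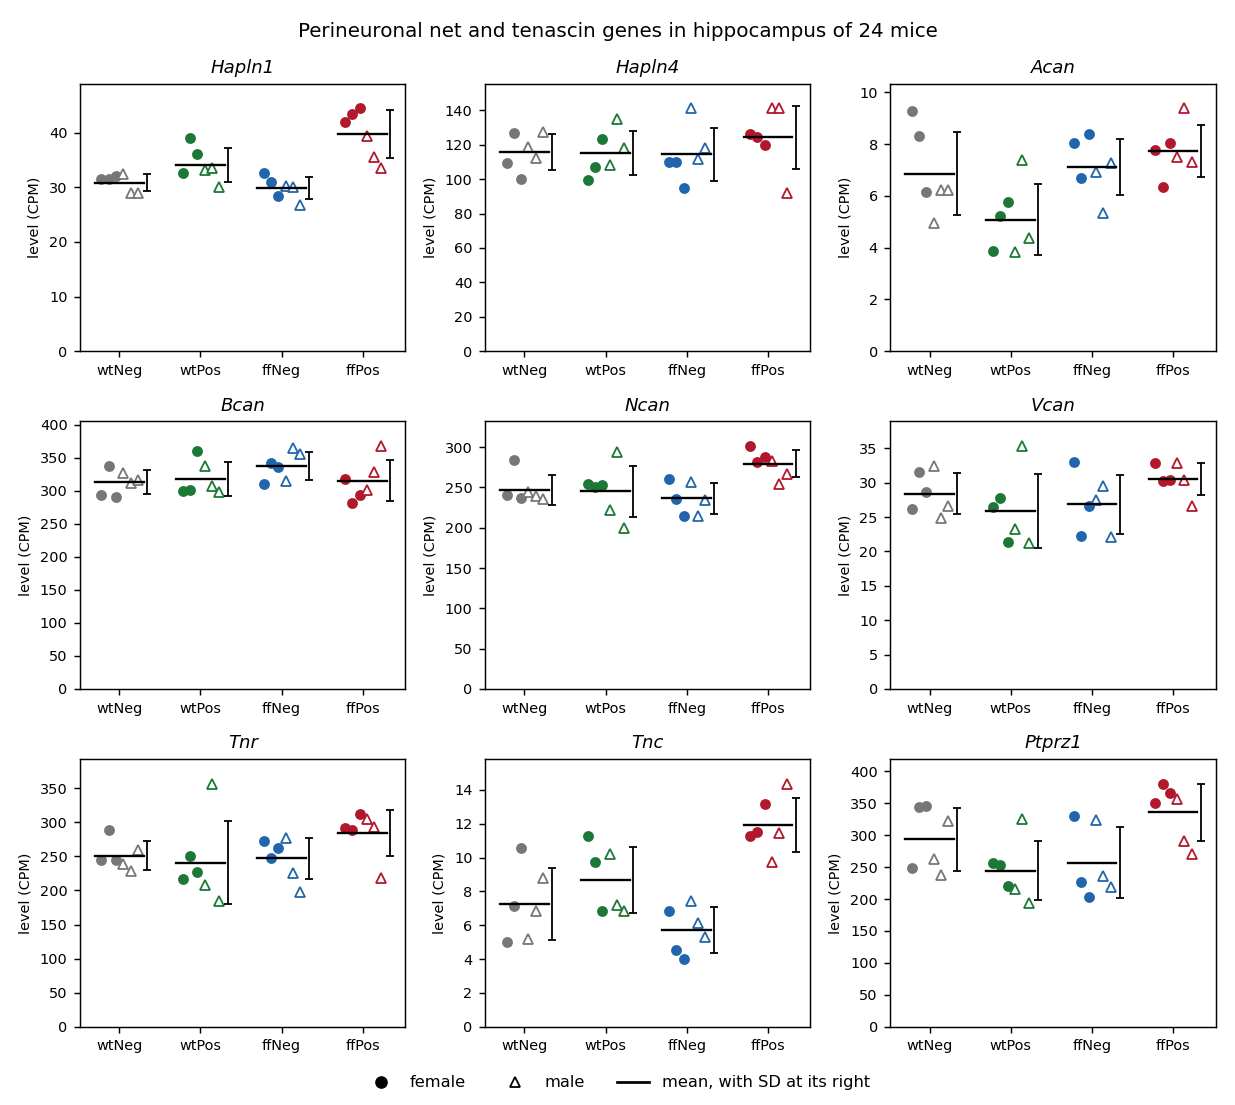
CPM of the 9 members in each mouse by genotype, females as filled circles and males as open triangles; the line is the mean of 6 mice and the bar beside it the SD. In Hapln1 and Tnc every ffPos mouse lies above every ffNeg mouse, and in the other 7 panels these genotypes overlap.

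Among the link proteins, Hapln1 (chromosome 13, 89539796 to 89611652, plus strand, GRCm38) encodes the link protein that locks lecticans onto hyaluronan and that many neurons of nets express. Its level was 28.9 to 32.4 CPM in wtNeg mice (median 31.4) and 26.7 to 32.5 in ffNeg mice (median 30.2). It was 30.1 to 39.0 in wtPos mice (median 33.3) and 33.6 to 44.5 in ffPos mice (median 40.7). The 2 Cre-negative genotypes covered nearly the same narrow range, every ffPos mouse lay above every ffNeg mouse, and wtPos overlapped both. In total 2 of 9 members separated ffPos from ffNeg in this way, Hapln1 and Tnc, where 0.172% of genes tested were higher in ffPos without overlap.

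The Cre difference of Hapln1 was 0.28 on the log2 scale (SE 0.046, 1.21-fold, adjusted p = 0.00854 by edgeR), the fifth smallest p of all genes tested. It stood at 0.41 in floxed mice (SE 0.072, adjusted p = 0.108 by edgeR) and at 0.14 in unfloxed mice (SE 0.070, adjusted p = 0.778), and neither pair passed this test on its own. For ffPos against ffNeg, Hapln1 was called by DESeq2 (adjusted p = 0.000386), which called 83 genes (0.446%), and in 1 edgeR fit of all 24 mice (adjusted p = 0.00611), which called 6 genes (0.0304%). The interaction, which sets these against each other, was 0.27 (SE 0.092, adjusted p = 0.160 by edgeR). At the threshold over all genes the larger value in floxed mice was thus not shown to differ. Unadjusted, edgeR's p was 0.00693 for this interaction and 0.0574 for the Cre difference in unfloxed mice, so a difference with Cre alone was not shown either. The call in the Cre term was kept in all 24 fits that left out 1 mouse. Without the 5 choroid-rich mice the difference was 0.31 (adjusted p = 0.0176 by edgeR). In bulk tissue, more cells of a type and more RNA per cell cannot be told apart, here and in the results that follow.

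Hapln4 (chromosome 8, 70083457 to 70090862, plus strand) encodes the brain link protein that is known from nets of the cerebellum and brainstem. Its medians were 116 CPM in wtNeg, 113 in wtPos, 111 in ffNeg and 126 in ffPos mice, and the 4 ranges, from 92.0 to 141 CPM in all, overlapped throughout. No term reached an unadjusted p of 0.05, and the Cre term was 0.06 (SE 0.065). Hapln1 and Hapln4 therefore parted in their test results with Cre, although the difference between the 2 genes was itself not tested.

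Each link protein gene is the neighbour of a lectican gene, an arrangement of the family that is easy to see in the annotation. Hapln1 lies 43.7 kb from Vcan and Hapln4 lies 2.22 kb from Ncan, in both cases end to end on opposite strands. Of the link protein genes outside the members, Hapln2 lies 21.5 kb from Bcan, and Hapln3 and Acan are 2 bases apart. No other protein-coding gene lies between any of the 4 pairs. Neighbours did not share their call: Vcan had a Cre term of 0.03 (SE 0.080) beside that of Hapln1. The libraries kept no strand, so reads from the abutting ends of Hapln3 and Acan, or from genes that overlap a member on the other strand (Gm8546 in Hapln1, Gm4117 and Gm16318 in Vcan, 8030451A03Rik in Tnc), cannot be told apart from the member's own.

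Among the lecticans, none was called in any term or genotype pair. Acan (chromosome 7, 79053483 to 79115099, plus strand) encodes aggrecan, the lectican without which mature nets do not form. Its level was 4.94 to 9.27 CPM in wtNeg (median 6.24), 3.82 to 7.41 in wtPos (median 4.80), 5.35 to 8.38 in ffNeg (median 7.10) and 6.36 to 9.40 in ffPos mice (median 7.64), from 81 to 238 counts per mouse. The Cre controls had the lowest median and the 4 ranges overlapped. This was the member with the largest floxP term, 0.33 (SE 0.114, adjusted p = 0.886 by edgeR). The Cre difference of Acan was −0.42 in unfloxed mice (SE 0.186, adjusted p = 0.778 by edgeR) and 0.13 in floxed mice (SE 0.130), with an interaction of 0.56 (SE 0.228, adjusted p = 0.201). Without the 5 choroid-rich mice the interaction of Acan was 0.31 (adjusted p = 0.636 by edgeR). Between the 2 Cre-positive genotypes Acan was 0.61 higher in ffPos (SE 0.170, adjusted p = 0.356 by edgeR). These comparisons share mice, so the same wtPos values enter several of them.

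Bcan (chromosome 3, 87987531 to 88000230, minus strand) encodes brevican, an abundant lectican of the adult brain made by glia and neurons. It ran from 291 to 337 CPM in wtNeg, 298 to 360 in wtPos, 310 to 365 in ffNeg and 281 to 368 in ffPos mice. It had the tightest values of the 9, no term with an unadjusted p under 0.05, and the single negative estimate of the interaction, −0.12 (SE 0.092).

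Ncan (chromosome 8, 70093085 to 70120873, minus strand) encodes neurocan, which neurons and astrocytes secrete. Its medians were 240 CPM in wtNeg, 251 in wtPos and 235 in ffNeg mice, and 283 in ffPos mice, where it ran from 254 to 302. The highest ffNeg mouse reached 261 CPM and the highest wtPos mouse 293, so ffPos overlapped both. Its Cre term was 0.11 (SE 0.052, adjusted p = 0.997 by edgeR), its difference between ffPos and ffNeg 0.24 (SE 0.067, adjusted p = 0.252) and its interaction 0.25 (SE 0.103, adjusted p = 0.210).

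Vcan (chromosome 13, 89655312 to 89742509, minus strand) encodes versican, whose brain forms come largely from the oligodendrocyte lineage. Its medians were 27.7 CPM in wtNeg, 24.9 in wtPos, 27.1 in ffNeg and 30.4 in ffPos mice, within an overall range of 21.2 to 35.4. The wtPos genotype held both ends of that range. None of the terms had an unadjusted p under 0.05.

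Of the tenascins, Tnr (chromosome 1, 159523769 to 159931729, plus strand), which cross-links lecticans in the net, was not called. It ran from 228 to 289 CPM in wtNeg (median 245), 184 to 357 in wtPos (median 222), 197 to 276 in ffNeg (median 256) and 218 to 312 in ffPos mice (median 292). The spread in wtPos mice (SD 61.0 CPM) was wider than in the other genotypes and rested on a single male at 357 CPM. The ffPos against ffNeg difference of Tnr was 0.21 (SE 0.091, adjusted p = 0.296 by edgeR), and 0.11 without the choroid-rich mice (adjusted p = 0.802).

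Tnc (chromosome 4, 63959785 to 64047015, minus strand), the tenascin of astrocytes and progenitors, had the largest Cre term and the largest difference between ffPos and ffNeg of the 9. Its level was 5.01 to 10.54 CPM in wtNeg (median 6.99), 6.82 to 11.3 in wtPos (median 8.47), 4.0 to 7.44 in ffNeg (median 5.73) and 9.76 to 14.4 in ffPos mice (median 11.5), from 73 to 370 counts per mouse. All ffPos mice lay above all ffNeg mice, while ffPos overlapped wtPos and wtNeg. The Cre term was 0.66 (SE 0.128, 1.58-fold, adjusted p = 0.0460 by edgeR), just inside the threshold. Between ffPos and ffNeg the difference of Tnc was 1.06 (SE 0.149, 2.09-fold, adjusted p = 0.0129 by edgeR), in a comparison that called 4 of 18622 genes (0.0215%; 0.0107% higher), and Tnc was the only member among these 4. Between wtPos and wtNeg it was 0.26 (SE 0.190, adjusted p = 0.784 by edgeR). Between ffPos and wtPos, where Egr1 was the single gene called (0.00541%), it was 0.47 (SE 0.149, adjusted p = 0.356). The interaction of Tnc was 0.79 (SE 0.255, adjusted p = 0.159 by edgeR). Unadjusted, edgeR's p was 0.00437 for this interaction and 0.189 for wtPos against wtNeg. A difference of Tnc with Cre alone was thus not shown.

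The calls of Tnc depended on single mice. In the Cre term the call remained without female wtNeg replicate 3, male wtNeg replicate 3, female wtPos replicate 3, male wtPos replicate 2 or 3 or male ffNeg replicate 1, and was lost without any 1 of the other 18 mice, with adjusted p up to 0.130 by edgeR. It was also lost without the 5 choroid-rich mice (0.64, adjusted p = 0.279) and without the 2 striatum-rich mice (0.62, adjusted p = 0.142). The ffPos against ffNeg call of Tnc was lost without male ffNeg replicate 2 or female ffPos replicate 1, 2 or 3, at adjusted p up to 0.0622 by edgeR, and without the choroid-rich mice (1.05, adjusted p = 0.188). The estimate itself stayed between 0.98 and 1.16 over the fits without 1 mouse. 

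Because the knockout lacks a transcription factor, the promoters of the members were searched on both strands for GCGNGGGCG, the 9-base motif of EGR1. Windows of 300 bases, from 250 before to 50 after the annotated start, were at hand for 8 of 9 members (RefSeq, GRCm38.p6), all but Hapln4. A match was present in 2 of these 8, Tnc and Ptprz1, where 6.27% of all gene symbols with a window, and 5.55% of all 32851 windows, hold one. The windows of Tnc and Hapln1, the members called with Cre, and of Ptprz1 are shown, with the match in capitals. Tnc has 2 annotated starts, whose windows overlap and hold the same match, and the window shown is that of the start at the outer end of the gene. The match of Tnc begins 171 bases before this start and 250 bases before the other. That of Ptprz1, read on the opposite strand, begins 44 bases before its start, while the window of Hapln1 holds none. The Hapln1 window, from 89540386, lies inside the gene as placed above, whose outer end is at 89539796. The sequence before that end was not searched.
Tnc, chr4:64046966-64047265, minus strand: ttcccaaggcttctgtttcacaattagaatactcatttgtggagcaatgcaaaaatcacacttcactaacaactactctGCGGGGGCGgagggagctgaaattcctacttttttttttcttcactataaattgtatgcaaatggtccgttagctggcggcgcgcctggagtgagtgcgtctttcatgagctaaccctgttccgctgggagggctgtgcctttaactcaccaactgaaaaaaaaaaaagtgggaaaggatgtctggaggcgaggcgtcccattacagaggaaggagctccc
Ptprz1, chr6:22875252-22875551, plus strand: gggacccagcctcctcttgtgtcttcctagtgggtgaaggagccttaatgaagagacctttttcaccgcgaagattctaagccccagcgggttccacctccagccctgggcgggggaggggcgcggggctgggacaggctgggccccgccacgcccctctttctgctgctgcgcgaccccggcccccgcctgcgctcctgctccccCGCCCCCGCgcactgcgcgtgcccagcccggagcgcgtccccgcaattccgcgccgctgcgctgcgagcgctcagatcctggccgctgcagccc
Hapln1, chr13:89540386-89540685, plus strand: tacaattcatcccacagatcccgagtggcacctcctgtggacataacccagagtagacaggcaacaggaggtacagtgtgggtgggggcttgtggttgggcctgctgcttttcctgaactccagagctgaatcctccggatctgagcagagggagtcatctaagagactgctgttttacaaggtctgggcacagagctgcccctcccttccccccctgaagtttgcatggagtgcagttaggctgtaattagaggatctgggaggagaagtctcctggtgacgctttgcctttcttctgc
A match of letters describes the window and is not evidence of binding, and the absence of a match says only that these letters are not in it.

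Ptprz1 (chromosome 6, 22875502 to 23052916, plus strand), the receptor phosphatase and source of phosphacan, had the interaction with the smallest p of the members. Its level was 238 to 346 CPM in wtNeg (median 292), 194 to 326 in wtPos (median 237), 203 to 331 in ffNeg (median 232) and 270 to 381 in ffPos mice (median 353). The 2 genotypes with a single alteration had the lower medians, and all 4 ranges overlapped. The Cre difference of Ptprz1 was −0.26 in unfloxed mice (SE 0.124) and 0.39 in floxed mice (SE 0.125), with adjusted p of 0.778 and 0.270 by edgeR. The interaction was 0.64 (SE 0.185, adjusted p = 0.159 by edgeR). It was called on the same counts by DESeq2, and by edgeR once male wtPos replicate 2 was left out, when Acan, Ncan, Vcan and Tnr were called too, among 1455 genes (7.05%). The same omission turned the 0 members called in ffPos against wtPos into these 5, among 791 genes (4.12%).

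In the study's broader contrast of the 6 ffPos mice with the 18 others, 0 members passed edgeR's test, where the single gene called was Egr1 (0.00507%). Hapln1 came nearest, at 0.33 (SE 0.065, adjusted p = 0.0600 by edgeR), ahead of Tnc at 0.73 (SE 0.158, adjusted p = 0.130), and 5 members had an unadjusted p under 0.05 beside 14.8% of all genes. DESeq2 called Hapln1 and Tnc there, among 42 genes (0.213%). Between wtPos and wtNeg, and between ffNeg and wtNeg, edgeR called 0 genes of 18588 and of 18797. At an unadjusted p under 0.05 these counts were 1104 (5.94%) and 1746 genes (9.29%), of which 1 member, Acan, and 0 members. DESeq2 called 17 and 2 genes, and neither tool called a member.

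Sex was examined because the design was balanced for it. Hapln1 was the single member with an unadjusted p under 0.05, beside 5.79% of all genes, at 0.14 higher in females (SE 0.046, adjusted p = 0.716 by edgeR). In the knockouts its 3 females had 42.0 to 44.5 CPM and its 3 males 33.6 to 39.5, without overlap, and females lay above males in this way in 6.8% of all genes. In the other 3 genotypes the sexes overlapped. The difference between sexes in the Cre term of Hapln1 was 0.13 (SE 0.093, unadjusted p = 0.166, adjusted p = 1.00 by edgeR). Tnc had nearly equal means in knockout females (12.0 ± 1.04 CPM, SD, n = 3) and males (11.9 ± 2.34). In the 3 tests of whether a genotype difference itself differed by sex, edgeR called 0 members and 0 genes, with 907 (4.59%), 620 (3.14%) and 825 genes (4.18%) at an unadjusted p under 0.05, 0 of them members, and DESeq2 called 5, 2 and 1 genes, none a member.

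Among the markers of other cell types, Aqp4 and Hopx also rose with Cre. Of the 6 astrocyte markers all had a positive Cre term, with a median of 0.16, and Aqp4, the water channel of astrocyte endfeet, was called (0.61, SE 0.078, adjusted p = 0.000179 by edgeR). Aqp4 had medians of 148 CPM in wtNeg and 133 in ffNeg mice, and of 209 in wtPos and 244 in ffPos mice. Gfap (0.26) and Gja1 (0.23) had adjusted p of 0.665 and 0.598 by edgeR, and Slc1a2 and Slc1a3, glutamate transporters of astrocytes, had Cre terms of 0.01 and 0.00. At an unadjusted p under 0.05 stood 3 of the 6, Aqp4, Gfap and Gja1. The summed level of the list, most of which is Slc1a2, was 3797 to 5221 CPM in wtNeg, 3591 to 5185.5 in wtPos, 3579 to 5225 in ffNeg and 3872 to 5489 in ffPos mice, and no astrocyte marker was at 0 in any mouse.

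Of the 5 neural progenitor markers 4 had a positive Cre term, and Hopx was called (0.49, SE 0.065, adjusted p = 0.000370 by edgeR), with 22.7 to 32.0 CPM in Cre-negative and 33.2 to 48.5 CPM in Cre-positive mice. The summed progenitor level was 87.5 to 111 CPM in wtNeg, 107 to 144 in wtPos, 88.2 to 106 in ffNeg and 112 to 137 in ffPos mice, with Eomes at 0 in 1 mouse. Hopx is part of this sum, with means of 27.3, 38.0, 27.4 and 38.5 CPM in the same order, where the sum had means of 99.2, 117, 98.4 and 120 CPM. Nes (0.17), Sox2 (0.15), Dcx (0.20) and Eomes (−0.42) each had an adjusted p of 0.997 by edgeR in the Cre term. All 6 choroid plexus markers had positive Cre terms (summed level 33.2 to 44.6 CPM in wtNeg, 54.1 to 2031 in wtPos, 33.9 to 1029 in ffNeg and 29.9 to 1122 in ffPos mice; Folr1 and Kcnj13 reached 0). Of the 5 meningeal fibroblast markers 4 were positive (15.6 to 89.0, 35.98 to 76.0, 38.8 to 54.9 and 33.6 to 78.6 CPM in the same order, none at 0). All 5 neocortical markers (138 to 173, 148 to 293, 141 to 183 and 125 to 190 CPM) and 4 of 6 striatal markers (49.2 to 58.3, 42.8 to 83.9, 49.3 to 97.4 and 52.3 to 129 CPM) had positive Cre terms, with none called. Positive terms were found for 1 of 5 oligodendrocyte, 2 of 5 oligodendrocyte precursor, 1 of 6 hippocampal neuron, 3 of 5 thalamic and 0 of 4 blood markers, with none called. The part of these markers in the rise of Hapln1 and Tnc was not tested, beyond the fits without the choroid-rich mice given above.

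For the neurons that carry nets, parvalbumin interneuron markers summed to 416 to 498 CPM in wtNeg, 361 to 485 in wtPos, 390 to 515 in ffNeg and 400 to 538 in ffPos mice. The CA2 markers summed to 149 to 188, 102 to 178, 156 to 181 and 139 to 190 CPM in the same order. These ranges overlapped, and none of the 6 interneuron or 5 CA2 markers was called in the Cre term. Most of the interneuron sum is Kcnc1 and Kcnc2 (medians of 220 and 115 CPM), where Pvalb had a median of 23.6 CPM. Of the 6, Pvalb alone had a negative interaction (−0.57, adjusted p = 0.160 by edgeR). Oligodendrocyte precursor markers, whose cells also express Vcan and Ptprz1, summed to 145 to 188, 143 to 202, 150 to 192 and 165 to 204 CPM.

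The related genes of net assembly and turnover did not pass the test in any comparison. Of 63 such genes listed, 60 were tested, and edgeR called 0 in each of the 12 comparisons. In the Cre term 7 had an unadjusted p under 0.05 by edgeR, 4 higher and 3 lower, with a median of 0.01, beside 4.29% of all genes. DESeq2 called 1 of the 60, Cntn1, in the interaction, where it gave no adjusted p for Hapln2, and 0 in the 11 other comparisons. In the interaction 10 of the 60 had an unadjusted p under 0.05 by edgeR, beside 18.4% of all genes, 7 positive and 3 negative, and the list's median was 0.13 against −0.03 over all genes. Of the 13 receptors and ligands of the list, 9 had a positive interaction, among them Cntn1, which encodes the adhesion protein contactin that binds tenascin-R and Ptprz1 (0.45, SE 0.131, adjusted p = 0.159 by edgeR). Hapln2, a link protein of nodes of Ranvier, had an interaction of −0.67 (SE 0.199, adjusted p = 0.159).

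With Cre, the smallest p among the related genes belonged to Itga8, an integrin subunit that binds tenascins (−0.28, SE 0.086, adjusted p = 0.824 by edgeR), and to Cemip, a hyaluronan-degrading protein (−0.18, SE 0.065, adjusted p = 0.997). With the floxed allele they belonged to Nptx2, a neuronal pentraxin (0.29, SE 0.119), and Cspg4, the NG2 proteoglycan of oligodendrocyte precursors (0.17, SE 0.069), with adjusted p of 0.886 and 0.892 by edgeR. With sex they belonged to Tnxb, tenascin-X (−0.29, SE 0.098), and again Nptx2 (0.34, SE 0.119), both at an adjusted p of 0.716. The 16 genes that make or sulphate chondroitin chains included 1 with an unadjusted p under 0.05 in the Cre term, and the 19 proteases, hyaluronidases, sulphatases and inhibitors included 2.

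From mouse to mouse, some members varied together. Pearson's r of log2(CPM + 1) was computed for all 36 pairs over the 24 mice, with two-sided permutation p adjusted over the 36. An adjusted p of at most 0.05 was found for 15 pairs. The share of such pairs among other genes was not computed, so the count describes the members and does not set them apart. Ptprz1 had a higher r with Ank2 (0.96), which is not a member, than with any member. Ncan, Vcan, Tnr and Ptprz1 were correlated with each other in all 6 of their pairs, and Hapln1 and Tnc were joined to them by 5 more. The highest r was that of Ncan and Ptprz1 (r = 0.80, rho = 0.81, permutation p = 2e-05 and 1e-05, the latter the smallest that 1e+05 draws can give, adjusted p = 0.000144 and 0.00018). It was 0.75 without the 2 mice farthest from the median of Ncan, 0.65 within the wt mice, 0.90 within the ff mice and 0.74 after the means of the 8 groups of genotype and sex were removed. Vcan and Tnr gave r = 0.79 and rho = 0.78 (permutation p = 1e-05 and 2e-05, adjusted p = 0.00012 and 0.00024), with 0.75 without 2 mice, 0.83 within wt, 0.72 within ff mice and 0.75 with group means removed.

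For Hapln1 and Tnc, both called in the Cre term, r over the pooled genotypes was 0.66, but −0.01 once the means of the 8 groups were removed. The pooled value thus reflects levels that differ between the groups. For Hapln1 and Ncan the pooled value also fell with group means removed, to 0.37 (from r = 0.68, rho = 0.72, permutation p = 0.00026 and 0.00014, adjusted p = 0.00156 and 0.00101), with 0.62 without 2 mice, 0.86 within ff and 0.31 within wt mice. Bcan was the exception in sign over the 24 mice, with r below 0 for 7 of its 8 pairs. Within the wt mice r was above 0 with Hapln1 (0.18), Hapln4 (0.46), Ncan (0.20) and Tnr (0.002). It was below 0 there with Acan, Vcan, Tnc and Ptprz1. Within the ff mice Bcan had r below 0 with every other member. Its r with Ptprz1 was −0.48 and its rho −0.46 (permutation p = 0.0198 and 0.0267, adjusted p = 0.0475 and 0.0626), at −0.49 without 2 mice, −0.83 within ff and −0.14 within wt mice, and −0.42 with group means removed.

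**Figure D4:**
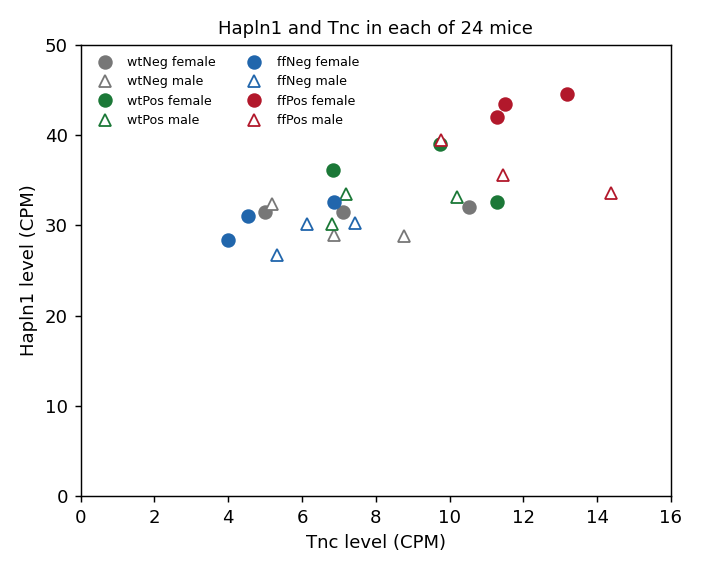
Hapln1 against Tnc in CPM in each of 24 mice, coloured by genotype, with females filled and males open. The 6 ffPos mice lie at 9.76 CPM of Tnc or more and 33.6 CPM of Hapln1 or more, and all ffNeg mice lie below both values.

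**Figure D5:**
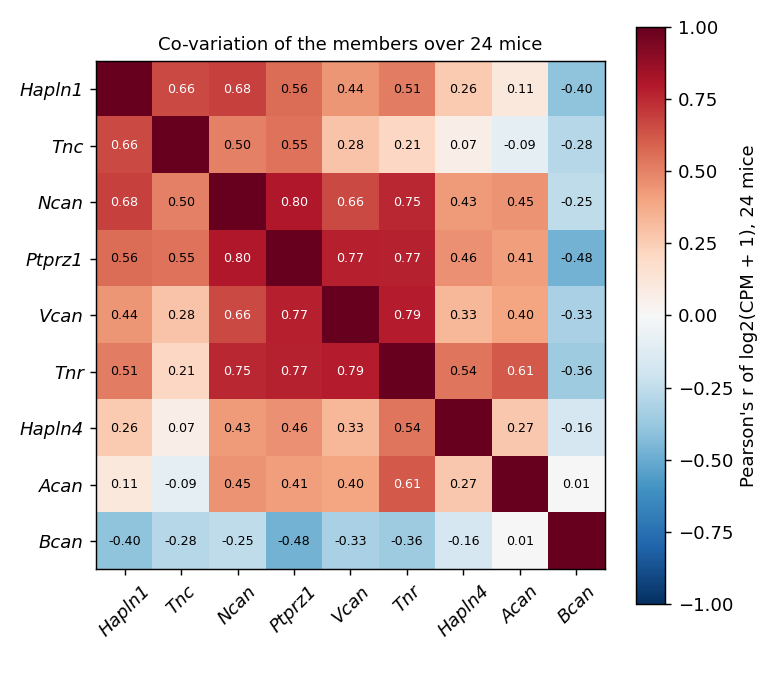
Pearson's r of log2(CPM + 1) over 24 mice for each of the 36 pairs of members, from blue (negative) to red (positive). Ncan, Ptprz1, Vcan and Tnr form the block of high values, from 0.66 to 0.80, and the Bcan row is mostly negative.

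The genes most like each member, among 15116 genes with a mean of at least 1 CPM, are given by Pearson's r over the same 24 mice, genotypes pooled, as a description. Hapln1 and Tnc had the same first gene, Aqp4, at 0.86 and 0.81. Adamts9 (0.76) and Uba6 (0.75) followed for Hapln1, and Swap70 (0.76) and Slc22a8 (0.75) for Tnc. Ptprz1 was closest to Ank2 (0.96), Sptbn1 (0.96) and Apc (0.96), whose exonic lengths of 35.004, 17.5 and 16.1 kb are, like the 14.2 kb of Ptprz1, long. For Tnr they were Arid1b, Ubr2 and Trpc5 (each 0.92), for Vcan Clmn (0.87), Setbp1 (0.86) and Homer2 (0.86), and for Ncan Gnao1 (0.87), Lrp4 (0.86) and Pigg (0.86). In the order named, these have exonic lengths of 12.6, 9.81 and 5.01 kb for Tnr (12.9 kb). For Vcan (14.5 kb) they have 12.4, 9.95 and 12.6 kb, and for Ncan (7.195 kb) 11.1, 10.5 and 4.57 kb. Hapln4 stood nearest to Rac1 (0.87), Slitrk5 (0.86) and Mfn2 (0.86), Acan to Ptpro (0.79), Tmem121b (0.78) and Gnal (0.72), and Bcan to Col11a2 (0.84), Lmtk3 (0.83) and Col16a1 (0.83). These points share library depth and RNA quality, whose part was not tested.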

How the data were processed

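Non-stranded polyA libraries of mouse hippocampus were sequenced by the authors, and per the labels reads were processed with Trim Galore and STAR (version 2.7.9 in the submitters' processing notes) on GRCm38; the methods of the study name another STAR version, and the gene annotation is not given in the sources used here. The deposited table holds raw counts per Ensembl gene, and gene names and positions came from GENCODE M21. Each mouse was grouped by its title and genotype label. Counts were scaled by TMM, filtered with filterByExpr (minimum count 10) and tested with edgeR 4.0.16 (quasi-likelihood F test, Benjamini-Hochberg over all genes tested) in R 4.3.3. The main fit held floxP, Cre, their interaction and sex over all 24 mice. Genotype pairs were fitted on their 12 mice with sex and called at a fold change of at least 1.2 besides an adjusted p of 0.05 or less. Scripts were tested on simulated data. Alternatives were DESeq2 1.42.0, its size factors, no filter, the replicate number as a block, other thresholds and covariates, and each mouse left out in turn. Fits without choroid-rich or striatum-rich mice, and with the summed level of genes of biotype TEC as a covariate, were added after seeing the data.

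Named genes were the 9 members, Egr1, for each of the 4 terms the 2 related genes with the smallest p, and the 3 genes most like each member; Aqp4, Hopx and other markers come from the marker lists and were named after their values were seen. The members and lists were chosen with earlier results of these data known. No mouse was imputed or dropped, and no 2 libraries of a group agreed within sampling noise (chi-square per degree of freedom of at least 4.70 in 24 pairs). Nothing says how far the mice of a group were related. The tests treat each mouse as independent, and p-values would be too small if mice of a group shared litters. Of the listed marker genes, Lhb was not in the table.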

Additional observations from a re-analysis of the deposited data

Results flagged for a closer look

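Of 40 groups of mice tested for an outlying value (the members and Egr1 in each genotype), 2 held one, where chance gives about 1 in 20. Ncan in female wtNeg replicate 2 was 283.5 CPM, and the next of the 6 wtNeg mice was at 244 CPM. Tnr in male ffPos replicate 3 was 218 CPM, and the next of the 6 ffPos mice was at 289 CPM; this mouse is also 1 of the 2 with striatal markers above 90 CPM. The Cre difference of Egr1 differed between floxed and unfloxed mice, with an interaction of −3.22 on the log2 scale, which is what the cross was made to do.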

How the results depend on the processing

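The direction of every member's difference with an unadjusted p under 0.05 was the same under all alternatives run. The count of members called was 0 under every alternative for the floxP and sex terms, for wtPos against wtNeg, for ffNeg against wtNeg and for the 3 tests between sexes. With Nestin-Cre it was 2, and it fell to 1, leaving Hapln1 without Tnc, with the replicate block, without the 5 choroid-rich mice, without the 2 striatum-rich mice and with the TEC covariate (adjusted p of Tnc 0.0800, 0.279, 0.142 and 0.0606 by edgeR); leaving out 1 mouse gave 1 to 2. Hapln1 was called in all 33 alternatives (adjusted p 4.38e-05 to 0.0324) and Tnc in 11 (2.00e-07 to 0.279). For the interaction the count of 0 became 1 with DESeq2, which gave no adjusted p there for Hapln1, Acan and Tnc. It became 2 without the filter on low counts, and 0 to 5 with 1 mouse left out, 5 being without male wtPos replicate 2. For ffPos against ffNeg the count of 1 became 2 with DESeq2, 3 without the filter, 2 in 1 fit of all 24 mice, 0 without the choroid-rich and 2 without the striatum-rich mice, and 0 to 4 with 1 mouse left out: 4 without male ffNeg replicate 1, 2 without male ffPos replicate 3, and 0 without male ffNeg replicate 2 or any 1 of the ffPos females. For ffPos against wtPos 0 became 2 without the filter and 0 to 5 with 1 mouse left out, 5 again being without male wtPos replicate 2, when 791 genes were called in all. For ffPos against the 18 others 0 became 2 with DESeq2 and 1 without the filter, with the sex term, without the choroid-rich mice and without the striatum-rich mice, and 0 to 2 with 1 mouse left out (2 without male ffPos replicate 3, 1 without male ffPos replicate 2). Same-numbered mice did not deviate together (mean correlation −0.003 over 84 pairs, 16 above 0.1), so the replicate numbers were not taken to pair the mice, and the block changed no other member's call. With 1 mouse left out the genes called in all moved too, from 5 to 12 with Cre and from 1 to 1455 for the interaction. For ffPos against ffNeg they ran from 1 to 282, and for ffPos against wtPos from 1 to 791. Against the 18 others they ran from 1 to 246. The member counts were thus not set apart from shifts over all genes. The cause of these changes was not tested.

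Counts over all genes moved further. With edgeR, DESeq2 and edgeR without the filter, the genes called were 9, 19 and 191 with Cre (6 with the block), 1, 2 and 97 for floxP, 1, 242 and 1173 for the interaction, 13, 17 and 111 for sex, 4, 83 and 808 for ffPos against ffNeg (8 with the block), 1, 37 and 529 for ffPos against wtPos, 0, 17 and 156 for wtPos against wtNeg, 0, 2 and 163 for ffNeg against wtNeg, and 1, 42 and 7 for ffPos against the 18 others. Without male wtPos replicate 2 the interaction called 1455 genes. The 3 tests between sexes gave 0 by edgeR, 5, 2 and 1 by DESeq2, and 145, 32 and 30 without the filter. The co-variation of members, with 15 pairs past the threshold, kept its count within 1.5 times under another pseudocount, other size factors and after removal of group means. The pairs themselves changed when group means were removed. Hapln1 with Ncan and with Tnc, Ncan with Tnc and Bcan with Ptprz1 were lost (permutation adjusted p = 0.148, 0.986, 0.864 and 0.0794). Others were gained, such as Hapln1 with Vcan (0.0273) and Hapln4 with Acan (0.0374). Tnc (from 73 counts) and Acan (from 81 counts) are the members least well measured.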
